A study of Oryza sativa with 7 samples.

Results

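DNA methylation of N22 (Nagina 22), a drought-tolerant rice cultivar, was compared with that of IR64, a drought- and salinity-sensitive cultivar, in the control libraries of whole genome bisulphite sequencing. These are 2 of 7 libraries of the series. Both came from unstressed seedlings kept in water, with 1 library per cultivar, and the DNA of independent plants had been pooled within each library, so the spread between plants cannot be measured. The desiccation libraries of N22 and IR64, from seedlings kept on dry filter paper, served as a second pair, and the control library of Pokkali, a salinity-tolerant cultivar, as a further cultivar. In bisulphite sequencing, unmethylated cytosines are read as thymine, and the methylation level is the percentage of reads that keep the cytosine. Each table lists only cytosines called methylated (mCs), with a depth of at least 5 reads. A cytosine absent from a table is therefore of unknown state, and only mCs listed in both libraries of a pair on the 12 chromosomes were compared. Every test concerns the reads of these libraries and not the cultivars in general.

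Plant cytosines are methylated by different enzymes according to the bases that follow them (CG, CHG or CHH), and H stands for any base but G. CG methylation is copied at replication by MET1 and is found in transposons and in the bodies of many expressed genes. CHG methylation is maintained by the chromomethylase CMT3 in a loop with histone H3 lysine 9 methylation and marks heterochromatin and transposons. CHH methylation has no template on the other strand and is renewed by RNA-directed DNA methylation through DRM2, mainly at the edges of transposons near genes, and by CMT2 inside heterochromatin. Rice chromosomes carry most of their transposons around the centromeres and most of their genes towards the arm ends.

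N22 control listed 18144722 mCs on the 12 chromosomes and IR64 control 14844134. Of these mCs, 10553044 were listed in both, which were 58.2% of the N22 mCs and 71.1% of the IR64 mCs. The shared mCs comprised 5493410 in CG, 3272628 in CHG and 1787006 in CHH. The shared fraction was largest in CG, with 61.1% of N22 and 79.2% of IR64 mCs, and smallest in CHH, with 49.8% and 49.5%. The mean depth at shared mCs was 21.4 reads in N22 and 17.0 reads in IR64. The N22 library was deeper in CG-rich sequence, as the ratio of its depth to that of IR64 was 1.10 in bins with 0 to 3 shared CG mCs, 1.18 with 4 to 7 and 1.53 with 8 or more, whereas it was 1.09, 1.09 and 1.04 in the desiccation pair. With reads thinned to equal depth at each shared mC, the level differences given next were 2.67 points for CG, 3.89 for CHG and 3.53 for CHH.

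Methylation of the shared mCs was higher in N22 in all 3 contexts. The pooled CG level was 88.2% in N22 and 84.6% in IR64, a difference of 3.55 percentage points (95% interval 3.54 to 3.56). In CHG it was 67.8% in N22 and 63.7% in IR64, a difference of 4.13 points (4.11 to 4.14). In CHH it was 39.5% in N22 and 36.4% in IR64, a difference of 3.12 points (3.10 to 3.14). These intervals cover counting error only. The mean over single mCs, which gives every mC the same weight, was higher in N22 by 2.04 points for CG, by 3.37 for CHG and by 4.19 for CHH, so CHH changed from the smallest to the largest difference with the weighting. Most single CG mCs were alike, as 63.3% of them lay within 10 points of each other in the 2 libraries, against 47.3% in CHG and 43.9% in CHH. A level at least 20 points higher in N22 was found at 9.14% of CG, 16.3% of CHG and 18.6% of CHH mCs, and a level at least 20 points lower at 4.93%, 8.65% and 9.06%. In the desiccation pair the pooled levels were 86.4% in N22 and 84.8% in IR64 in CG, 65.8% and 62.8% in CHG, and 37.0% and 36.0% in CHH. The excess of N22 was thus smaller in that pair, at 1.59 points for CG, 3.04 for CHG and 1.01 for CHH.

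Reads were summed in bins of 100 bp with at least 3 shared mCs. A bin was called different when the level differed by at least 20 points and the adjusted p of Fisher's exact test (Benjamini-Hochberg over all bins of the context) was at most 0.01. Of 1033289 bins tested with the contexts summed, 39171 were called (3.79%). N22 was higher in 32820 of them (3.18% of bins tested) and lower in 6351 (0.615%). In CG, 26099 of 739954 bins were called (3.53%), with 20908 higher (2.83%) and 5191 lower (0.702%) in N22. In CHG, 13849 of 476139 bins were called (2.91%), with 11723 higher (2.46%) and 2126 lower (0.447%). In CHH, 7056 of 183587 bins were called (3.84%), with 5898 higher (3.21%) and 1158 lower (0.631%). N22 was the higher library in 80.1% of called CG bins, 84.6% of called CHG bins and 83.6% of called CHH bins. The direction also held away from the calls, since 62.5% of all tested bins had a higher level in N22, with a median difference of 2.06 points. The threshold lay in a dense part of the distribution, as 4024 called bins differed by 20 to 22 points while 4382 bins with an adjusted p of at most 0.01 differed by 18 to 20 points. Reads of neighbouring cytosines come from the same DNA fragments, so these p-values are too small. With 1 mC per bin, 13507 bins were called with contexts summed, 10830 in CG, 3572 in CHG and 202 in CHH, and N22 was higher in 78.5%, 76.9%, 78.0% and 57.4% of them.

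The same test within each cultivar gave far fewer calls in CG and CHG. Between N22 desiccation and N22 control, 1167 bins were called with contexts summed (0.0947%), 362 in CG (0.0399%), 117 in CHG (0.0192%) and 1657 in CHH (0.758%). Nearly all of these were higher in N22 control, with 1082 of the bins with contexts summed, 344 in CG, 109 in CHG and 1515 in CHH. Between IR64 desiccation and IR64 control, 726 were called (0.0626%), with 301 in CG (0.0362%), 43 in CHG (0.00815%) and 884 in CHH (0.389%). Of these, 286 with contexts summed, 133 in CG, 31 in CHG and 289 in CHH were higher in IR64 control. Between the cultivars under desiccation, 35454 bins were called with contexts summed (3.36%), 25444 in CG (3.36%), 12665 in CHG (2.59%) and 4280 in CHH (2.23%). In the within-cultivar pairs the treatment and the library cannot be told apart. They share the control libraries with the comparison of N22 with IR64.

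**Figure D1:**
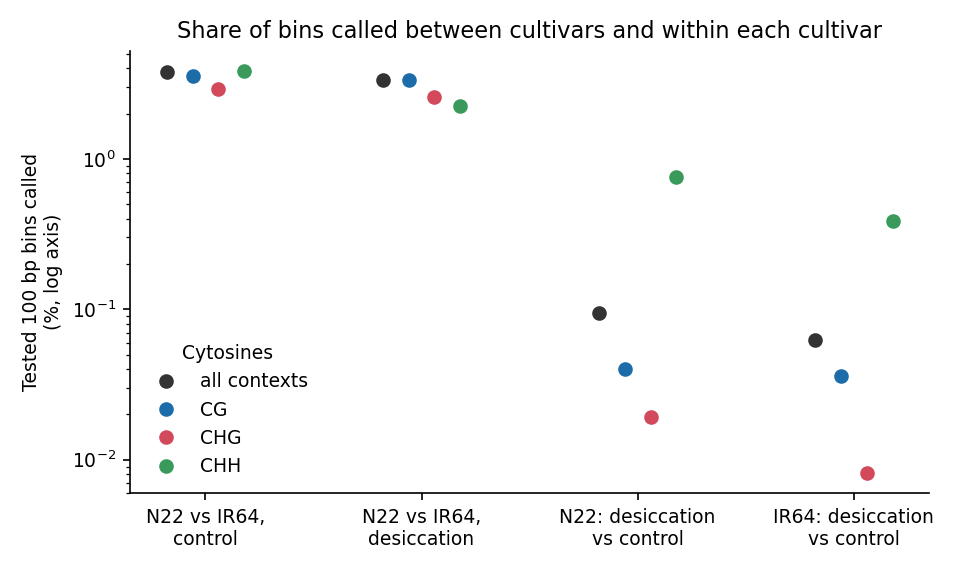
Percentage of tested 100 bp bins that were called (log axis) in each pair of libraries, with 1 point per context. Between the cultivars the share lay between 2.23% and 3.84% in every context, while within a cultivar it was 0.0399% or less in CG and CHG and reached 0.758% in CHH.

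Called bins were mostly partial differences. In CG bins higher in N22 the median level was 92.6% in N22 and 53.7% in IR64, and in CG bins lower in N22 it was 56.5% in N22 and 91.7% in IR64. In CHG bins higher in N22 the medians were 79.1% in N22 and 40.7% in IR64, and in CHG bins lower in N22 they were 44.3% and 80.3%. In CHH bins higher in N22 the medians were 64.7% in N22 and 34% in IR64, and in CHH bins lower in N22 they were 36.1% and 68.2%. In CG the more methylated library was near the median of all bins measured in the N22, IR64 and Pokkali control libraries (93.4% in N22 and 92.3% in IR64), and in CHG it was somewhat above it (75.8% and 72.7%). In CHH it lay well above that median (50% in N22 and 44.7% in IR64). Differences from at least 80% in one library to at most 20% in the other were few, with 792 bins higher and 32 lower in N22 with contexts summed. Bins that lacked methylation in one library could not be seen, because their cytosines were not listed there.

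Single bins were named for the largest difference in each context and direction, among bins that also differed by at least 20 points with the same sign under desiccation, so their desiccation levels are a description. All coordinates refer to MSU release 7 of the rice genome, the japonica reference to which both cultivars were aligned. The CG bin with the largest excess in N22 lay on chromosome 3 (12658901 to 12659000), where the level was 98.1% over 157 reads in N22 and 12% over 231 reads in IR64 (adjusted p 1.19e-70, Fisher's exact test). Under desiccation it was 97.1% in N22 and 16.1% in IR64, and in Pokkali control 22.2%. A second CG bin, on chromosome 8 (5235701 to 5235800), had 95.5% in N22 and 9.71% in IR64, with 92.9% and 12.7% under desiccation and 95.8% in Pokkali. Pokkali thus had the IR64 state in the first bin and the N22 state in the second.

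The 2 CG bins with the largest deficit in N22 lay on chromosome 3 (4145801 to 4145900), with 19.0% in N22 and 94.3% in IR64, and on chromosome 12 (2768501 to 2768600), with 20.9% in N22 and 93.1% in IR64. Under desiccation the first had 15.6% in N22 and 91.9% in IR64 and the second 17.7% in N22 and 94.9% in IR64. Pokkali had the IR64 state in both, with 92.1% and 89.5% in CG.

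In CHG, the bins with the largest excess in N22 lay on chromosome 11 (22422001 to 22422100), with 97.2% in N22 and 16.8% in IR64, and on chromosome 12 (5024601 to 5024700), with 97.6% in N22 and 18.4% in IR64. The CG mCs of the chromosome 11 bin had 100% in N22 and 17.9% in IR64, so both contexts differed there, while the chromosome 12 bin held no shared CG mC. The CHG bins with the largest deficit lay on chromosome 11 (19290801 to 19290900), with 24.5% in N22 and 92.7% in IR64, and on chromosome 6 (15809901 to 15810000), with 23.5% in N22 and 91.3% in IR64. In the chromosome 11 bin lower in N22, CG mCs were less different, with 68.9% in N22 and 92.7% in IR64. Under desiccation the 4 CHG bins differed by 70.7, 80.2, -64.4 and -53.1 points.

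The named CHH bins differed by less than those of CG and CHG. On chromosome 6 (6586301 to 6586400) the CHH level was 86.8% over 68 reads in N22 and 22.7% over 97 reads in IR64, with 76.4% in N22 and 20.3% in IR64 under desiccation. On chromosome 2 (19128401 to 19128500) it was 95.7% in N22 and 32.7% in IR64, with 75.5% and 37.3% under desiccation (adjusted p 0.00401, Fisher's exact test). The CG mCs of that bin went the other way, with 90.1% in N22 and 100% in IR64. Of the CHH bins lower in N22, that on chromosome 6 (19180801 to 19180900) had 28.8% in N22 and 88.1% in IR64 and that on chromosome 4 (24495801 to 24495900) had 26.9% in N22 and 83.6% in IR64. In the chromosome 6 bin, CG was higher in N22, with 95.5% in N22 and 73.3% in IR64.

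Calls in CG and CHG coincided more often than over all bins, but most calls were made in 1 context. Of 3894 bins called higher in N22 in CG and also tested in CHG, 29.4% were called higher in CHG too, against 2.06% of all bins tested in both. Their median CHG difference was 17.9 points, against 2.45 points in all bins. In the reverse direction, 16.1% of 7112 bins higher in CHG were called higher in CG, against 1.13% of all bins, and their median CG difference was 4.57 points. Of 1174 bins called lower in CG, 10.8% were called lower in CHG, against 0.390% of all bins, and their median CHG difference was -2.61 points. Called or not, CHG had the sign of the CG call in 85.3% of bins higher in CG, against 61.2% of all bins. For bins lower in CG this was 59.3%, against 38.5% of all bins. Calls of opposite sign in CG and CHG were rare, with 5 bins higher in CG and 12 bins lower in CG. In CHG and CHH, 13% of 994 bins higher in CHG were higher in CHH too, against 2.16% of all bins tested in both. For CG and CHH, both signs were found. Of 1061 bins higher in CG and tested in CHH, 58 were called higher and 45 lower in CHH, and of 414 bins lower in CG, 9 were called lower and 55 higher in CHH. Over all bins tested in both, 2.33% were called higher and 0.624% lower in CHH. The contexts share reads within a bin, so these counts describe the bins and were not tested.

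Only 54558 bins could be tested in all 3 contexts. Of these, 2399 were called in at least 1 context, and 89.5% of them in a single context. The most frequent patterns were higher in N22 in CHH alone (821 bins), in CHG alone (465) and in CG alone (348), followed by lower in N22 in CHH alone (272). CG and CHG were both higher in 90 bins and CHG and CHH in 62. CG lower with CHH higher was found in 24 bins and CG higher with CHH lower in 21. All 3 contexts were higher in N22 in 8 bins and lower in 2.

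The type of sequence, as given by the contexts listed in a bin, was related to the share of calls. Bins with CG mCs alone, the pattern known from gene bodies, were called in 6.77% of 130892 cases, and bins with CG, CHG and CHH mCs, the pattern of silenced transposons, in 2.53% of 598699. Bins with CG and CHG were called in 5.19%, bins with CG and CHH in 3.82% and bins without CG in 5.48%. These calls sum the contexts, so a difference in 1 context is pooled with the others in mixed bins. The mean number of shared mCs also differed, with 5.29 in CG-only bins and 11.5 in bins with all 3 contexts. What these contribute to the shares was not tested. N22 was the higher library in 80.3% of the calls in CG-only bins and in 88.8% of those in bins without CG. Bins with CG alone held fewer reads in N22 than in IR64, with medians of 72 and 91 in the inner part of the arms, while bins with all 3 contexts held 173 in N22 and 130 in IR64. Gene and transposon annotation was not used here, so these types were not checked against it.

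The 2 strands of a bin are covered by different reads, but these come from the same pooled DNA, so the strands are not independent samples. Among bins tested on both strands, 6442 were called in CG from the plus strand alone, and the minus strand had the same sign in 93.6% of them, against 54.4% of all bins. In CHG this was 92.4% of 3130 bins, against 58.1% of all. In CHH it was 79.2% of 2658 bins, against 59.7% of all, and the median difference on the minus strand was 10.8 points where the plus strand, which chose the bins, had 28.7. CG and CHG calls thus recurred on the other strand at 26.8 and 24.6 points, more fully than CHH calls.

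The desiccation pair holds other libraries of the same cultivars. Of the bins called in CG in the control pair and tested in both pairs, 97.1% of 22199 kept their sign in the desiccation pair, where the figure for bins regardless of call was 58.2%, and 62.3% were again called that way. In CHG, 96.5% of 12130 bins had the same sign, against 61.2% of all bins, and 49.6% were called again. In CHH, 79.5% of 6325 bins had the same sign, against 57.9% of all bins, and 17.1% were called again. The CG bins higher in N22 had a median difference of 33.2 points in the control pair and 28.2 points in the desiccation pair, and the CG bins lower in N22 had -30.9 and -28.3 points. The corresponding CHG medians were 32.1 and 25.5 points for higher bins and -31.3 and -25.4 points for lower bins. CHH bins higher in N22 fell off most, with 27.1 and 9.26 points, and only 14.3% of them were called again, while CHH bins lower in N22 had -28.2 and -17.7 points and 32.6% were called again. N22 was the higher library in 53.9% of all CHH bins called in the desiccation pair, against 83.6% in the control pair. The error rate that the study lists for calling mCs was higher for N22 control than for IR64 control, although the chloroplast conversion it lists was slightly more complete in N22. With both libraries called again at an error rate of 1%, N22 was higher in 79.2% of called CHH bins, and the pooled CHH difference was 2.69 points.

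The 12 chromosomes differed little. The share of bins called with contexts summed was lowest on chromosome 8 (3.26%, 95% Wilson interval 3.14 to 3.38) and chromosome 4 (3.38%, 3.27 to 3.50) and highest on chromosome 11 (4.26%, 4.12 to 4.4), followed by chromosomes 10 and 5 (4.13% each). In the desiccation pair chromosome 8 had 2.98%, chromosome 4 3.09%, chromosome 3 3.03%, chromosome 11 3.57% and chromosome 5 3.66%. N22 was higher in most calls of every chromosome, in 80.4% (78.8 to 81.9) on chromosome 12 at the lowest and in 88.6% (87.4 to 89.7) on chromosome 10 at the highest. On chromosome 10 the share of higher bins was 90.6% in CHG and 85.4% in CG, and on chromosome 12 it was 82.5% and 74.5%.

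Called bins became more frequent towards the arm ends. With each arm divided into 10 equal steps from the centromere, 2.62% of bins were called in the innermost step (2.54 to 2.70), 3.50% in step 3, 4.06% in step 7 and 4.56% (4.42 to 4.71) in the outermost step. CG rose from 2.24% in step 1 to 4.49% in step 9 and CHH from 2.60% in step 1 to 4.46% in step 8. CHG was flatter and lay between 2.57% and 3.44% without an order. The desiccation pair had the same course, with 2.36% in step 1 and 3.94% in step 10. In 23 of 24 arms the outer 3 steps held a larger share of calls than the inner 3 steps. The exception was the long arm of chromosome 5, with 3.6% in the outer and 4.53% in the inner steps. The contrast was widest on the short arm of chromosome 2, with 7.94% in the outer and 2.86% in the inner steps. The share of higher bins among calls did not follow this course and lay between 82.0% and 85.2% in every step. The centromere positions are approximate.

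**Figure D2:**
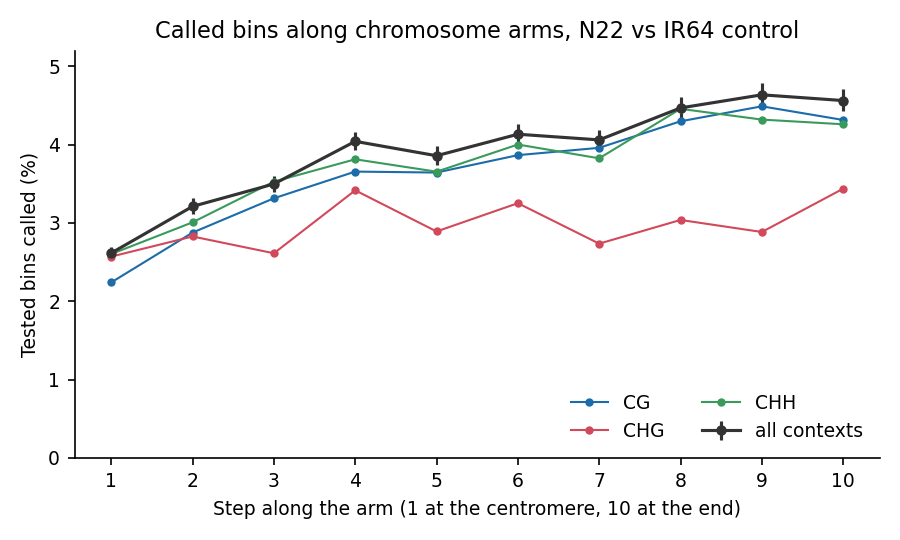
Percentage of tested bins called (vertical axis) in 10 steps of each chromosome arm (horizontal axis, all arms together), by context. Bars on the line for all contexts are 95% Wilson intervals. All contexts summed, CG and CHH were lowest at the centromere (2.62%, 2.24% and 2.60%), and CHG stayed between 2.57% and 3.44%.

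The composition of the bins also changed along the arms. Bins with CG alone made up 5.85% of tested bins in the innermost step and 21.6% in the outermost, and bins with all 3 contexts 63.8% and 53.3%. Within CG-only bins the share of calls was nearly flat, with 6.67% (6.39 to 6.96) in the inner, 6.68% in the middle and 6.92% (6.70 to 7.14) in the outer part of the arms. Within bins with all 3 contexts it was 1.95% (1.90 to 2.01) in the inner, 2.8% in the middle and 3.10% (3.01 to 3.19) in the outer part. In bins with CG and CHG it was 4.26%, 5.80% and 6.52%. The mean difference of bins was also smaller at the centromere, with 1.48 points in CG in step 1 and 2.32 in step 10, and 2.52 and 3.95 points in CHH. In CHG it was 3.06 and 3.66 points. Pooled reads, which weigh loci by their depth, gave a CHG difference of -1.30 points in the outermost step. It was 4.45 points in step 1, 7.68 in step 6 and 6.45 in step 9. Because of these values the mean over bins was used for the course along the arms. What loci of extreme depth contribute to the pooled values was not tested.

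In windows of 1 Mb, the share of called bins had a median of 3.87% over 377 windows with at least 500 tested bins and a range of 1.25% to 8.84%. N22 was higher in most of the called bins of each of these 377 windows, with a share of 62.6% to 97.3%. In the desiccation pair this was lost in 2 of these windows, at 13 to 14 Mb of chromosome 8 (48.7% higher, against 67.6% in the control pair) and at 43 to 44 Mb of chromosome 1 (41.7%, against 77.8%). The highest shares were found at 27 to 28 Mb of chromosome 11 (8.84%), near the end of the long arm, and at 0 to 1 Mb (8.23%), 4 to 5 Mb (8.06%) and 1 to 2 Mb (7.98%) of chromosome 2. These windows had 7.38%, 7.32%, 6.18% and 7.0% in the desiccation pair. On the chromosome 2 windows 92.5%, 89.6% and 92.2% of the called bins were higher in N22, but on the chromosome 11 window 74.0%. The lowest shares were those of 11 to 12, 12 to 13 and 13 to 14 Mb of chromosome 8 (1.53%, 1.25% and 1.61%), around its centromere, and of 18 to 19 Mb of chromosome 6 (1.27%). Their desiccation values were 1.29%, 1.43%, 1.79% and 1.35%.

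Most called bins stood alone. The 39171 bins with contexts summed formed 32885 runs of adjacent bins with the same sign, of which 86.8% were a single bin. An untested or uncalled bin ended a run. The next bin along the chromosome was tested for 18741 of 32820 bins higher and 3259 of 6351 bins lower in N22. For higher bins by context it was tested for 9033 of 20908 in CG, 6443 of 11723 in CHG and 2759 of 5898 in CHH. Run lengths thus also depend on where bins could be tested. Runs of at least 2 bins held 27.1% of the called bins, 29.3% of those higher and 15.6% of those lower in N22. There were 173 runs of 5 bins or more, of which 169 were higher in N22 and 4 lower, and 12 runs of 10 bins or more. The longest run had 18 bins. In CHG, 32.2% of called bins lay in runs of at least 2 bins and the longest run had 17 bins. In CG these values were 21.1% and 13 bins, and in CHH 15.7% and 4 bins. No run of the within-cultivar pairs exceeded 4 bins. Longer runs recurred more often under desiccation. Of single bins 94.1% kept the sign and 48.1% were called again, of bins in runs of 3 to 4 bins 98.9% and 74.8%, and of bins in runs of 5 or more 98.7% and 83.3%. Bins in runs of 5 or more were also deeper, with a median depth per mC of 21.9 reads in N22 and 21.4 in IR64, against 16 and 17.4 for single bins.

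Around a called bin, calls of the same sign decayed within a few kilobases, most slowly in CHG. Of tested bins 100 bp away from a CG bin higher in N22, 31.0% were called higher in CG, and this share was 6.94% at 1000 bp and 3.22% at 10000 bp, against 2.83% of all bins. Next to CHG bins higher in N22 it was 38.8% at 100 bp, 16.4% at 1000 bp, 5.01% at 5000 bp and 3.44% at 10000 bp, against 2.46%. Next to CHH bins higher in N22 it was 18.4% at 100 bp and 5.59% at 1000 bp, against 3.21%. Bins lower in N22 had fewer such neighbours, with 15% in CG, 25.7% in CHG and 15.1% in CHH at 100 bp, against 0.702%, 0.447% and 0.631% of all bins. Adjacent bins can share sequenced fragments, whereas bins 1000 bp apart lie beyond the fragment size of these libraries.

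**Figure D3:**
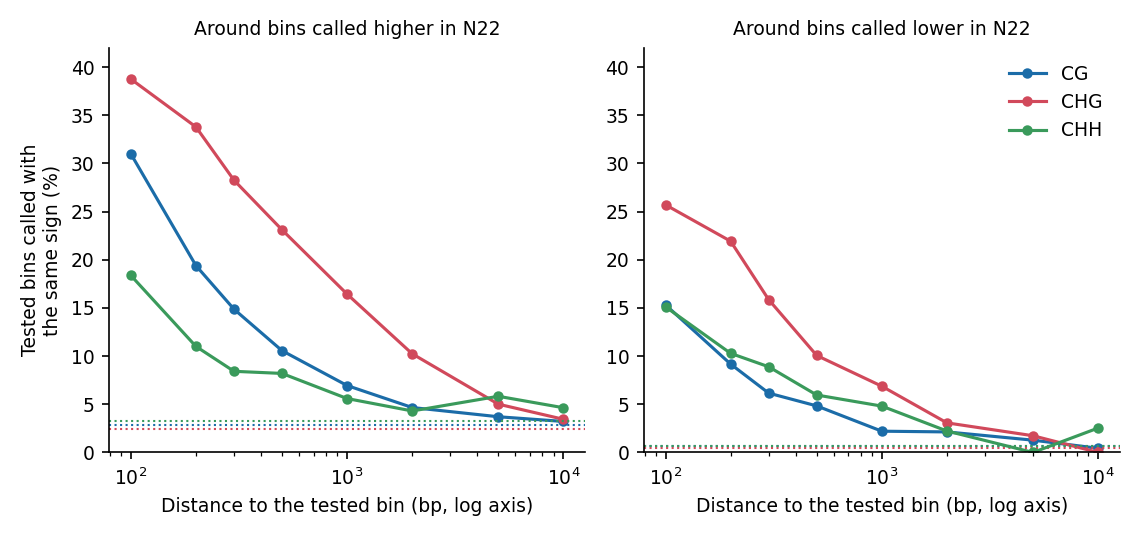
Percentage of tested bins called with the same sign (vertical axis) at a given distance (log axis) from a bin called higher in N22 (left panel) or lower in N22 (right panel), by context. Dotted lines are the shares of all tested bins called in that direction. At 100 bp from a higher bin the share was 38.8% in CHG, 31.0% in CG and 18.4% in CHH.

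The 4 longest runs higher in N22 covered between 1300 and 1800 bp, and a further run of 13 bins on chromosome 5 (15185701 to 15187000) tied with the shortest of them, with 83.7% in N22 and 33.8% in IR64. On chromosome 2 (2607201 to 2609000, 18 bins, 250 shared mCs) the level with contexts summed was 85% in N22 and 40.8% in IR64, with 95.1% and 55.7% in CG, 84.2% and 35.6% in CHG and 34.2% and 15.7% in CHH. Under desiccation it was 82.9% in N22 and 37.9% in IR64, and all 18 bins were called again. Pokkali had 83.5%, close to N22. The depth per mC was 65.3 in N22 and 26.3 in IR64 and 55.1 and 26.9 under desiccation, and whether this excess of reads in N22 bears on the level was not tested.

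A run of 14 bins on chromosome 4 (10844101 to 10845500) was made up mainly of CG mCs, 143 of 172. Its CG level was 94.7% in N22 and 30.5% in IR64, and with contexts summed the level was 90.9% in N22 and 31.9% in IR64. Under desiccation it was 86.8% and 38.5%, and Pokkali had 47.0%. A run of 14 bins on chromosome 12 (4458801 to 4460200) was made up mainly of CHG mCs, with a CHG level of 76.5% in N22 and 32.1% in IR64 and a CG level of 78.8% and 68.9%. Pokkali lay between them, with 57.4% in CHG. A run of 13 bins on chromosome 5 (15140401 to 15141700) had 85.2% in N22 and 29.8% in IR64 in CHG and 95.9% and 59.6% in CG, and Pokkali had 70.8% and 94.7%.

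The 4 runs of 5 bins or more that were lower in N22 were shorter. On chromosome 11 (19290201 to 19290900, 7 bins) the CHG level was 27.4% in N22 and 93.3% in IR64, with 26.1% and 88.8% under desiccation and 88.5% in Pokkali. All 34 shared mCs of this run but 4 were CHG, and the bin of chromosome 11 named for its CHG deficit lies in it. On chromosome 4 (26722101 to 26722700, 6 bins) the CG level was 48.6% in N22 and 93.3% in IR64, and under desiccation 32.6% and 93.1%. On chromosome 6 (14939401 to 14939900, 5 bins) it was 40.1% in N22 and 95% in IR64, and under desiccation 31.4% and 92.6%. Pokkali had 95.7% and 94.0% in CG in these runs, as in IR64. On chromosome 7 (8132601 to 8133100, 5 bins) CHG was 44.0% in N22 and 87.9% in IR64 while CG was 93.3% and 97.6%, and Pokkali had 59.7% in CHG. In the runs of chromosomes 11 and 4, Pokkali was near the level of IR64, and N22 was the library apart. In the chromosome 6 run this held in CG but not in CHG. The CHG level there was 32.7% in N22, 46.3% in IR64 and 78.5% in Pokkali.

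**Figure D4:**
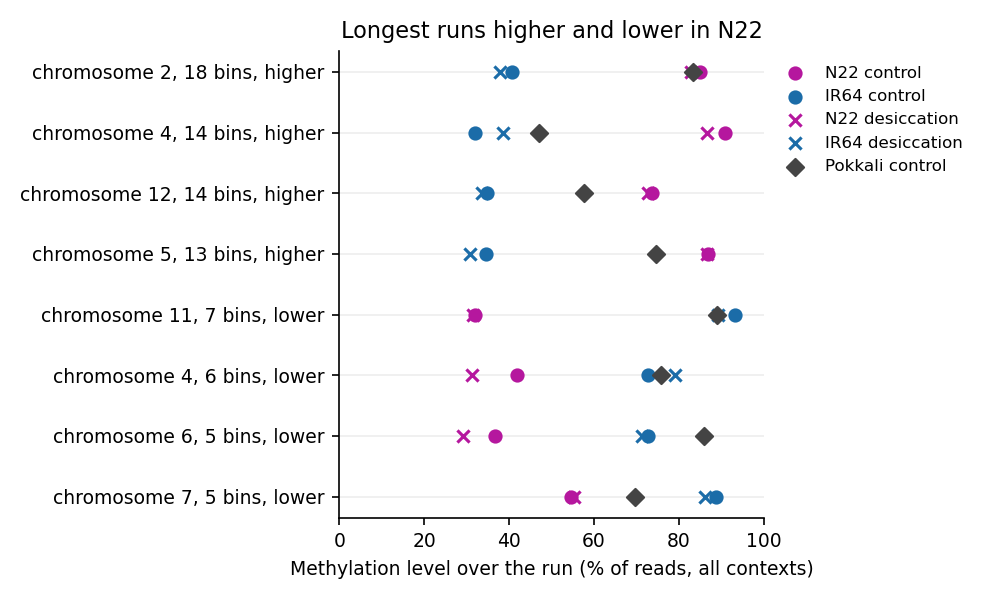
Methylation level with contexts summed (horizontal axis, percentage of reads) in the 4 longest runs higher and the 4 longest runs lower in N22 (rows), in 5 libraries (points). Desiccation and control points of a cultivar lie close together in the 18-bin run (82.9% and 85% for N22, 37.9% and 40.8% for IR64) and farther apart in the chromosome 4 run lower in N22 (31.2% and 41.9% for N22, 79.2% and 72.8% for IR64).

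Most long runs with both contexts differed in CG and CHG together or in CHG alone. Of the 173 runs of 5 bins or more, 140 had at least 5 shared mCs in each of CG and CHG. Both contexts differed by at least 20 points in 97 of them, CHG alone in 38 and CG alone in 5, and the CHG difference was the larger in 85. The median difference of these 140 runs was 43.8 points in CHG and 34.6 points in CG. In 34 runs CG differed by less than 10 points while CHG differed by at least 20, and there the median CG level was 94.8% in N22 and 90.3% in IR64 while the median CHG level was 82.7% in N22 and 33.6% in IR64. Those of these runs that were higher in N22 kept dense CG methylation in IR64 with lower CHG methylation than in N22. The chromosome 7 run lower in N22 was the reverse, with a CHG level of 44.0% in N22 and 87.9% in IR64. Another 9 of the 173 runs held no shared CHG mC and differed in CG. CHH could be measured with at least 5 shared mCs in 19 runs and differed by at least 20 points in 7. The runs were chosen on the same reads, so these values are a description. Of the 172 runs with shared mCs in the desiccation pair, 171 had the same sign there and 157 differed by at least 20 points. The 169 runs higher in N22 had median levels of 86.5% in N22 and 41.7% in IR64, and under desiccation 85.7% and 44.4%.

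**Figure D5:**
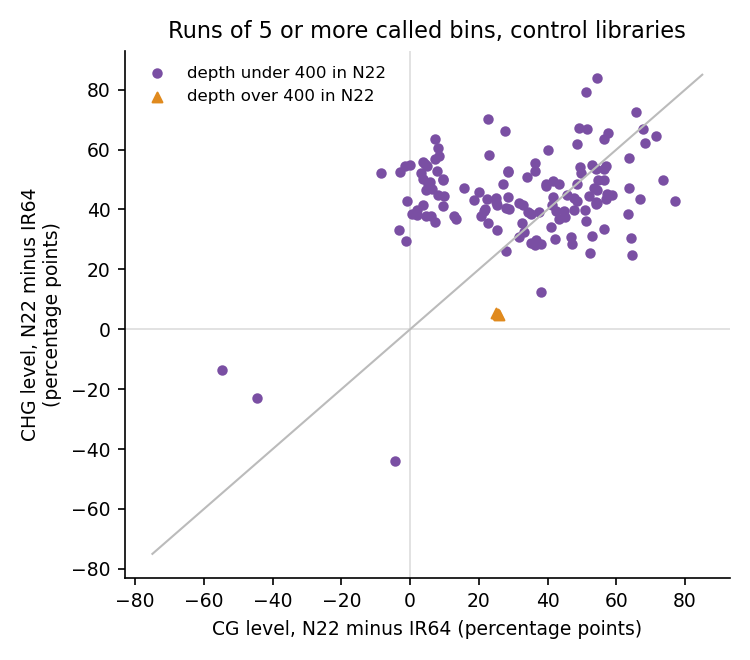
Difference in CG level (horizontal axis) and in CHG level (vertical axis), N22 minus IR64 in percentage points, for 140 runs of 5 or more called bins (points), with a diagonal of equal difference. In 85 runs the CHG difference was the larger, and 34 runs had a CG difference under 10 points. Triangles are 3 runs with a mean depth above 400 reads in N22.

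Long runs were concentrated on chromosome 5. It held 46 of the 173 runs (26.6%) but 9.10% of the tested bins and 9.91% of the called bins. All 46 were higher in N22, and 35 of them started between 7 and 17 Mb, around the centromere. The window from 15 to 16 Mb held 9 runs, more than any other, and 97.0% of its called bins were higher in N22. Some of them lay almost end to end (15139401 to 15140200, 15140401 to 15141700 and 15141801 to 15142300, and 15185101 to 15185600 and 15185701 to 15187000). Such runs are not counted as independent. The runs from 15140401 and 15185701 had near-equal CG levels in N22 (95.9% and 95.7%) and IR64 (59.6% and 59.5%). Whether they are copies of a repeat was not tested. The median level of the 46 runs was 87.0% in N22 and 41.4% in IR64, and under desiccation 86.7% and 46.3%, and 45 of the 46 differed by at least 20 points there. Their median depth was 18.7 reads in N22 and 19.6 in IR64. Chromosome 2 followed with 21 runs and chromosome 11 with 18, and the other chromosomes had 5 to 16.

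A repeated locus at the very end of the short arm of chromosome 9 gave 5 of the long runs. The end of this arm is known as the site of the array of ribosomal RNA genes in rice, although no annotation was used here to place them. The runs started at positions 2901, 10801, 18801, 26701 and 34601, that is every 7900 to 8000 bp, and each covered 5 or 6 bins. Over all CG mCs listed in each library, the CG level of the 5 runs was 51.5% to 53.3% in N22 control and 24.2% to 27.1% in IR64 control. Under desiccation it was 44.0% to 47.2% in N22 and 30.2% to 33.0% in IR64, and in Pokkali control 55.4% to 57.9%. The levels of the repeats were thus almost equal within a library and ordered in the same way in both pairs, but the difference was smaller under desiccation. The depth was 755 to 899 reads in N22 control and 322 to 406 in IR64 control. Under desiccation it was 433 to 526 in N22 and 563 to 668 in IR64. N22 was thus the deeper library in the control pair and IR64 in the desiccation pair. Within each cultivar, the deeper library had the higher level. Whether the depth bears on these levels was not tested. Whether reads were shared among these near-equal copies was not tested, and the 5 runs are not counted as independent. A run on chromosome 2 (28718701 to 28719300) was also deep, with 452 reads per CG mC in N22 control and 245 in IR64 control. Its CG levels were 57.3% in N22 control and 32.4% in IR64 control.

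Pokkali was on the side of N22 more often in CG bins higher in N22 than elsewhere. Of 17661 such bins with at least 3 mCs listed in all 3 control libraries, the Pokkali level was nearer to that of N22 in 62.3% (61.6 to 63.1). Of 4541 CG bins lower in N22 it was nearer to N22 in 26.2% (24.9 to 27.5). The median CG level of the higher bins was 92.7% in N22, 79.4% in Pokkali and 55.2% in IR64, and that of the lower bins 57.5%, 85.4% and 91.8%. In both cases Pokkali was nearer to the more methylated library. However, 20908 CG bins were called higher and 5191 lower, and those with too few mCs listed in Pokkali were left out. Bins without methylation in Pokkali could thus not be counted, and whether this bears on these shares was not tested. In CHG bins it was nearer to N22 in 37.7% of higher and 42.6% of lower bins, and in CHH bins in 31.8% and 51.0%. The bins were chosen for the difference between N22 and IR64, so the place of Pokkali is a description and was not tested.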

How the data were processed

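Bisulphite reads of each library were aligned by the authors to the rice genome (MSU release 7) with Bismark, and cytosines were called methylated at a binomial p of 0.001 against an error rate that the study's methods, which also name methylKit, describe as chloroplast non-conversion. The deposited tables give, for each such cytosine, the read depth as a count and the methylation level as a percent. Here, methylated reads were recovered as depth times level, rounded to whole reads. Cytosines listed in both libraries on the 12 chromosomes were summed in 100 bp bins with at least 3 of them, by context, leaving out 1329 whose context differed. Each bin was tested by a two-sided Fisher's exact test with Benjamini-Hochberg adjustment and called at 20 points and an adjusted p of 0.01. Reads of neighbouring cytosines are not independent, so p-values are too small. Wilson intervals (95%) cover counting error only.

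Each group has 1 library of pooled DNA, so no replicate error exists. Median depth of listed cytosines was 13 reads in N22 control and 12 in IR64 control. Named bins were the 2 with the largest difference per context and direction, with at least 50 reads per library, at least 5 cytosines, no cytosine above the 99th percentile of depth, and 20 points of the same sign under desiccation. Named runs were the 4 longest per direction, and named windows the 4 highest and 4 lowest of 1 Mb with at least 500 bins. Members and lists were chosen with earlier results of these data known. Centromere positions are approximate textbook values. Gene annotation and sequence were not used here, and the part of sequence differences between the cultivars and the reference in mapping was not tested. The bin test was tested on simulated data with reads drawn independently, so its error rate with reads from shared fragments was not examined. Alternatives covered depth, bins, thresholds, calling error, strand, read dependence and the desiccation libraries. Python 3.11.15, numpy 2.4.6, scipy 1.17.1, pandas 2.3.3, numba 0.67.0 and matplotlib 3.10.9 were used.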

Additional observations from a re-analysis of the deposited data

Results flagged for a closer look

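A few bins were called in both pairs of libraries with opposite signs, that is, N22 was higher than IR64 in one pair and lower in the other. With contexts summed there were 10 such bins, in CG there were 7 and in CHH 18. The difference between the pairs was not tested in these bins.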

How the results depend on the processing

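No paired analysis was possible because each group has 1 library, and for the same reason no replicate could be left out. Where tested, no level difference, named bin or named run changed sign under the alternatives run for it. A count of called bins cannot reverse in this way, and the counts that moved are given below. In the desiccation libraries, N22 was no longer higher in most called bins of the 2 windows named in the text, and chromosome 5 (3.66%) in place of chromosome 11 (3.57%) had the highest share called. Called bins with contexts summed numbered 18261 on the plus strand, 18364 on the minus strand, 21958 at 30 points and 13507 with 1 cytosine per bin, against 39171. In CG they numbered 9828 (plus), 9743 (minus), 13786 (at least 5 cytosines), 16555 (30 points) and 10830 (1 cytosine), against 26099. In CHG they numbered 4998 (plus), 4925 (minus), 8811 (at least 5 cytosines), 8611 (30 points), 9007 (adjusted p of 0.001) and 3572 (1 cytosine), against 13849. In CHH they numbered 4703 (depth of 10), 4411 (plus), 4474 (minus), 4280 (desiccation libraries), 2856 (30 points), 4202 (adjusted p of 0.001) and 202 (1 cytosine), against 7056. N22 was higher in 53.9% to 86.4% of called bins over all settings. In CHH this share was 76.5% after centring differences on their median.

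The level differences in CG, CHG and CHH were 3.69, 3.98 and 2.88 points at a depth of 10, 2.97, 4.62 and 3.75 without depths above the 99th percentile, 3.08, 3.89 and 2.69 with cytosines called again at an error rate of 1%, 3.49, 3.57 and 3.03 on the plus strand, 3.61, 4.70 and 3.22 on the minus strand, 2.67, 3.89 and 3.53 after thinning, 1.59, 3.04 and 1.01 in the desiccation libraries, and 4.03, 5.68 and 2.10 with 1 cytosine per bin. The plus strand alone called 7 of the 12 named bins, and the others had too few shared cytosines on that strand to be tested. Of the named bins, 3 in CHH lost their call with 1 cytosine per bin. These bins were chosen for large differences that recurred under desiccation, so their calls under other thresholds, centring and the desiccation libraries are no sign of stability. Called bins in runs of at least 2 made up 33.9% when a run could pass over 1 bin, against 27.1%. The outer 3 steps of the arms exceeded the inner 3 by 1.49 points, and by 1.24 with position from the nearer chromosome end. Thinning, chosen for these measures after seeing the data, gave 27.7% and 1.20 points, with 143 runs of 5 bins or more against 173. At a depth of 10, CG calls also called in CHG made up 26.4%, against 25.1%, and chromosome 11 exceeded chromosome 8 by 1.31 points, against 1.0. Apart from settings that use fewer cytosines, reads or strands or a stricter limit, the causes were not tested.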
